A study of Mus musculus with 28 samples.

Results

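The 10 mouse genes described here restrain the cell cycle or belong to the p53 response. They were chosen by gene name: the cyclin-dependent kinase (CDK) inhibitors Cdkn1a, Cdkn1b, Cdkn1c, Cdkn2a, Cdkn2b and Cdkn2c, then Trp53, which encodes p53, and the p53 targets Mdm2, Ccng1 and Bax. Each name matched 1 gene, so they make up 10 of the 29413 genes of the BMP table and 10 of the 55416 genes of either other table. A filter on low values kept 9 of them in the BMP table and 9 in the TGFb table, where Cdkn2a was below it, and all 10 in the mesenchymal table.

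The series measured mRNA by sequencing in 28 samples, in tables of normalized values that were scaled separately. Organoids are crypt-derived epithelial cultures, here from the small intestine of wild-type C57BL/6 mice, which were kept in ENR medium without added ligand before treatment. Of those in the BMP table, 4 samples were untreated, 4 received recombinant BMP2, and 3 each received BMP3, BMP4, BMP5 or BMP7. Of those in the TGFb table, 3 samples were untreated and 3 received recombinant Tgfb. Every ligand was labelled as given at 500 ng/ml for 24 h. The mesenchymal table held 1 sample labelled fresh, without E6, and 1 sample of immortalised cells from the duodenum of PdgfraH2BeGFP mice, in which eGFP fused to a histone reports Pdgfra. The immortalised cells carried the E6 gene of human papillomavirus HPV16 from a retroviral construct, were selected with puromycin, sorted for high eGFP and expanded. Age and sex of the animals were not given in the labels. Nothing in the labels says that samples of a group came from separate animals or cultures, so the p-values measure the spread between these samples, which may be technical.

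CDK inhibitors stop cyclin-CDK complexes from phosphorylating the RB protein, which keeps E2F factors from switching on genes of DNA replication. The CIP/KIP inhibitors bind many cyclin-CDK complexes, whereas the INK4 inhibitors bind CDK4 and CDK6. The p53 protein is a stress-activated transcription factor whose targets include Cdkn1a, Mdm2, Ccng1 and Bax, and MDM2 in turn marks p53 for breakdown. Signals of the Tgfb family are known to raise Cdkn1a and Cdkn2b transcripts in epithelial cells, and HPV16 E6 is known to direct the destruction of the p53 protein.

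The promoter sequences of the members on which the results turn are shown first, from RefSeq start sites in the GRCm38.p6 build, each running from 250 bases before to 50 bases after a start site. Of the 10 genes, 9 had such windows, 12 in all, and Cdkn1c had none. Cdkn1a (ENSMUSG00000023067, chromosome 17) has a start site upstream at chr17:29090729-29091028 on the plus strand, and the capitals mark a p53 site there, searched on both strands as adjacent half-sites with at most 1 mismatch to the p53 consensus.

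Cdkn1a upstream start: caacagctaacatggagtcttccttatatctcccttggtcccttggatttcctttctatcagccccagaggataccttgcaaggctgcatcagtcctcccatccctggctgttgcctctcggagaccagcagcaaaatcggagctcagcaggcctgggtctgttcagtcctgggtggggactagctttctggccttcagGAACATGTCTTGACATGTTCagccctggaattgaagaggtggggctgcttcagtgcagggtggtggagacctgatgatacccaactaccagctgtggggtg

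The site lies 51 to 32 bases before the start and was found in 18 of 32851 promoter windows (0.0548%). None of the other 11 windows of these genes held it, nor did any window of the 17 other p53 target genes that had one. The second Cdkn1a start, at chr17:29093519-29093818 on the plus strand, and the single Cdkn2b start, at chr4:89310983-89311282 on the minus strand, are shown because these transcripts rose together with several ligands. Their capitals mark GGGCGG, a GC box, which 35.7% of all windows held on either strand.

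Cdkn1a downstream start: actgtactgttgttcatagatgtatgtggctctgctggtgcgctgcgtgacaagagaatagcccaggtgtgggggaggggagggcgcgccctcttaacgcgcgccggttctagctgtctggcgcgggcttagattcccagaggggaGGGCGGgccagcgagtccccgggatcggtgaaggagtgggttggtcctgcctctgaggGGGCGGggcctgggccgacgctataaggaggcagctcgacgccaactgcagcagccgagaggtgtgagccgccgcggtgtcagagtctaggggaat
Cdkn2b start: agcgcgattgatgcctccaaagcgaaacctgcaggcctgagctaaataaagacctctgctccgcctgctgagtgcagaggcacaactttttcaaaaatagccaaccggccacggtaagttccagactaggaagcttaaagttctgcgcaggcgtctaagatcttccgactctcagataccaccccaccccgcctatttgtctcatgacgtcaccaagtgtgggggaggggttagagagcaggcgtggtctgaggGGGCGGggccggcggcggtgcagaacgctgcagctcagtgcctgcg

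The palindrome GTCTAGAC, a binding sequence of SMAD proteins, was in 70 of all windows (0.213%) and in 0 of these 12. The sequence GGCGCC, also bound by SMAD proteins, was in 11.9% of all windows and in neither the Cdkn1a nor the Cdkn2b windows. It was present in the Cdkn1b window, the upstream Cdkn2a window and a Cdkn2c window. Cdkn2a (ENSMUSG00000044303, chromosome 4) is shown because it differed most between the mesenchymal samples and because its single value sums the products of separate start sites. The upstream start, at chr4:89294570-89294869 on the minus strand, is that of the Arf product, which restrains MDM2. The downstream start, at chr4:89282143-89282442 on the minus strand, is that of the Ink4a product, an inhibitor of CDK4 and CDK6. Capitals again mark GGGCGG.

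Cdkn2a upstream start: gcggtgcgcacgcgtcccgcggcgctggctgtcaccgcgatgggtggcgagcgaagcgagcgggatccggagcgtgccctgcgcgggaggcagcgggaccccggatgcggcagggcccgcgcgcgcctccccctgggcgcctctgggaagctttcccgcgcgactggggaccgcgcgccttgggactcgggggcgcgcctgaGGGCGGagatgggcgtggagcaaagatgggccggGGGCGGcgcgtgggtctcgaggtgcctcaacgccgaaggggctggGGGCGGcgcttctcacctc
Cdkn2a downstream start: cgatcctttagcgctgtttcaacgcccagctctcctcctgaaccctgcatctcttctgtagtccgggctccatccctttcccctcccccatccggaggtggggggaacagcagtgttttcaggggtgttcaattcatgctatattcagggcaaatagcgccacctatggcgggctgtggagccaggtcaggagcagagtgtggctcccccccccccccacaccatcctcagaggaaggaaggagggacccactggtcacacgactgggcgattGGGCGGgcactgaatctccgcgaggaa

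A match of letters is a description of the sequence and not evidence that a protein binds there.

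Before the members are described, some facts about the libraries bear on all results. The deposited BMP values correspond to 21356522 to 24781703 recovered reads per sample, with 1 read worth 0.826 to 1.28 normalized counts, and the depth of the TPM tables is unknown. The study's text speaks of more than 1 sequencing run and does not assign samples to runs, so an effect of the run could not be examined. Rescaling to the same total moved the median of all genes by -0.46 (log2) with BMP2 and by -0.40 with BMP4, while quantile normalization moved it by 0.18 and 0.11. Crypt stem cell markers (4 genes) summed to 95740 to 120000 normalized counts in untreated organoids, 135.5 to 678.1 with BMP2 and 1779 to 3474 with BMP4. The same sum was 24950 to 72910 with BMP5, 21590 to 25850 under BMP7 and 93840 to 115100 under BMP3. The enterocyte markers (4 genes) summed to 36510 to 63390 in untreated organoids, 14250 to 25570 with BMP2 and 208700 to 307400 with BMP4. In bulk samples fewer cells of a type and less RNA per cell cannot be told apart, and the part of these cell-type shifts in the changes reported here was not tested. Of the 6 mesenchymal markers the sums lay between 3.56 and 55.36 normalized counts in all BMP-table samples, against 95740 to 665600 for the 6 epithelial markers. Col3a1 was at 0 in untreated, BMP5 and BMP7 samples, and Thy1 in BMP5 samples.

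Cdkn1a, the p21 inhibitor and a classical p53 target, rose with BMP2, BMP4, BMP7 and BMP5, and its values with BMP3 overlapped the controls. Values are given in normalized counts in the order of replicates II, III, IV and VI, where present. Untreated organoids had 1170, 1510, 1200 and 1900 normalized counts of Cdkn1a. With BMP2 the values were 11400, 13800, 12100 and 13500, and with BMP4 they were 8380, 10800 and 10600 (replicates II, III and VI). All 7 of these samples stood far above every control. With BMP7 Cdkn1a was at 2560, 2990 and 4230, and with BMP5 at 1510, 3210 and 3360 (both II, III and VI), so that BMP5 replicate II lay inside the control range. With BMP3 it was at 1140, 1480 and 1200 (II, III and IV). In limma with Benjamini-Hochberg adjustment over 14746 genes, the log2 fold change was 3.16 with BMP2 (SE 0.219, adjusted p 2.12e-10), 2.80 with BMP4 (SE 0.236, 1.05e-08), 1.17 with BMP7 (SE 0.236, 9.00e-04) and 0.84 with BMP5 (SE 0.236, 0.0132). The BMP5 call was lost without BMP5 replicate III (0.67, adjusted p 0.0916), without replicate VI (0.64, 0.101) and when only those 2 groups were fitted (0.0582), and the change was 1.21 without replicate II. A gene model annotated on the opposite strand, AC167363.2, overlaps Cdkn1a and makes its value uncertain, since whether counting used the strand is not given in the sources used here.

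Ordered by mean level, Cdkn1a was at 12700 ± 1140 normalized counts with BMP2 (SD, n = 4), 9927 ± 1343 with BMP4, 3260 ± 867 with BMP7 and 2693 ± 1028 with BMP5 (SD, n = 3 each), 1445 ± 340 in untreated organoids (SD, n = 4) and 1273 ± 182 with BMP3 (SD, n = 3). The step from BMP4 down to BMP7 passed the direct limma test (1.63, SE 0.253, adjusted p 2.09e-05). The step from BMP2 to BMP4 was 0.36 with a 95% interval of -0.14 to 0.86 and an adjusted p of 0.189. That adjusted p was 0.0355 with only those 2 groups and 0.0141 with replicate numbers as blocks. The step from BMP7 to BMP5 did not pass either, with the interval of BMP5 against BMP7 running from -0.86 to 0.20. Over the 20 samples of the BMP table the genes most like Cdkn1a were Wdfy1 (ENSMUSG00000073643), Rab6a (ENSMUSG00000030704) and Plekhb2 (ENSMUSG00000026123), with Pearson correlations of log2 values of 0.992, 0.99 and 0.988 among 14745 genes. These samples share ligands and controls, so the correlations describe this set of samples only.

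**Figure D1:**
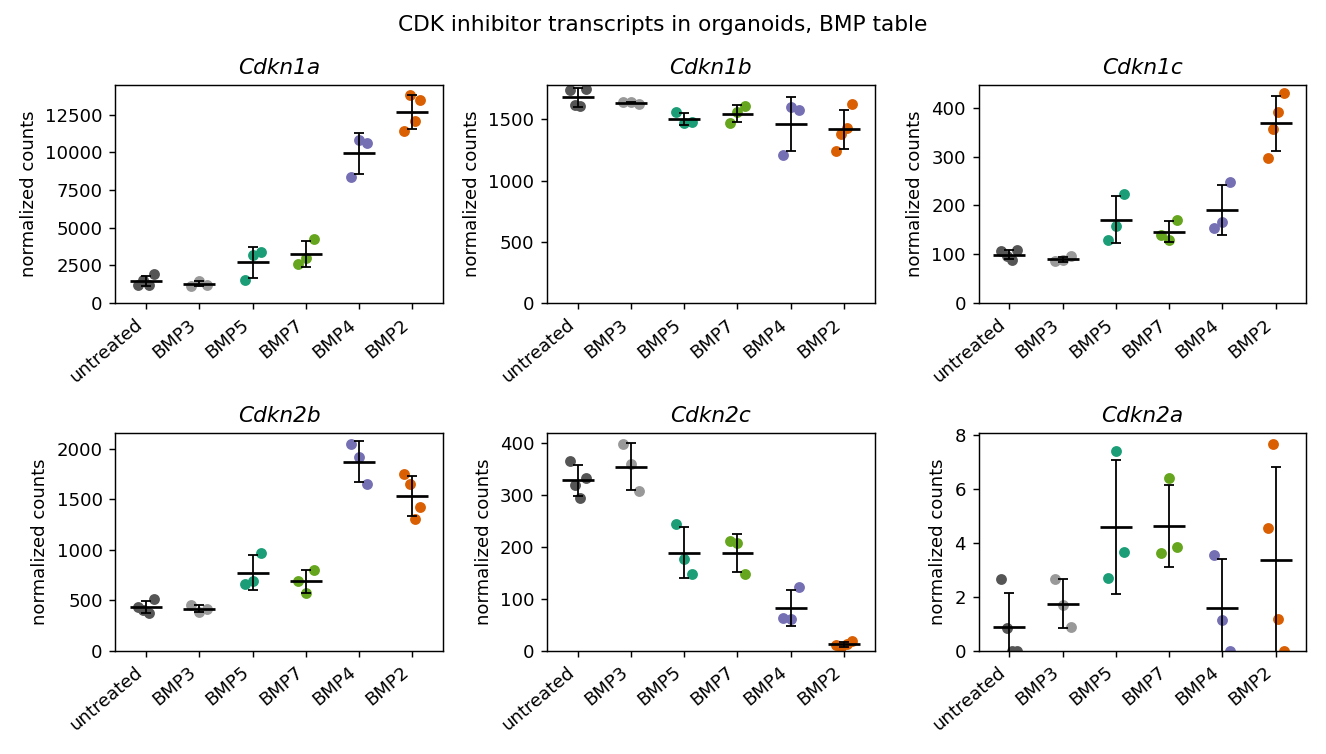
Normalized counts (vertical axes, from 0) of 6 CDK inhibitors in each organoid sample of the BMP table, by group. Points are samples, horizontal bars the group mean and error bars the SD (n = 4 for untreated and BMP2, n = 3 for the others). Cdkn1a reached 8380 or more in every BMP2 and BMP4 sample, while Cdkn2c was at 19 or less in every BMP2 sample.

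Cdkn1c (ENSMUSG00000037664, chromosome 7), the p57 inhibitor, rose with the same 4 ligands. It had 106, 95.4, 87.8 and 108 normalized counts in untreated organoids and 297, 357, 392 and 430 with BMP2. It had 154, 167 and 249 with BMP4, 130, 158 and 224 with BMP5, and 139, 129 and 171 with BMP7. All 13 of these treated samples exceeded the highest control, whereas BMP3 samples had 85.4, 88.7 and 95.4. By limma the log2 change was 1.87 with BMP2 (SE 0.177, adjusted p 1.60e-08), 0.90 with BMP4 (SE 0.191, 4.19e-04), 0.74 with BMP5 (SE 0.191, 0.00733) and 0.55 with BMP7 (SE 0.191, 0.0347). The BMP4 rise was 0.50 with the same total (0.0167). The BMP5 call was lost without BMP5 replicate VI (adjusted p 0.0716). The BMP7 call was lost without untreated replicate III (0.0703) or IV (0.0825), without BMP7 replicate II (0.0686) or VI (0.160), and with no filter on low values (0.0584). An antisense gene on the opposite strand, Gm44732, overlaps Cdkn1c, had at most 5.88 normalized counts in any sample, and makes the Cdkn1c count uncertain by that small amount.

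Cdkn1b (ENSMUSG00000003031, chromosome 6), the p27 inhibitor, moved by at most 0.25 on the log2 scale as deposited, and by up to 0.71 once totals were made equal. It had 1740, 1620, 1610 and 1750 normalized counts in untreated organoids and 1240, 1380, 1430 and 1630 with BMP2. The BMP2 and control values overlapped, and the fall of 0.25 on the log2 scale passed the limma test (SE 0.0903, adjusted p 0.0187), except without BMP2 replicate II (-0.19, adjusted p 0.0739). The BMP2 fall was 0.71 with the same total (-0.71, 3.79e-07) and 0.52 with quantile normalization (-0.52, 7.58e-06). With BMP4, at 1210, 1600 and 1580, the change was -0.21 (95% interval -0.41 to 0.00, adjusted p 0.0675). With replicate numbers as blocks that adjusted p was 0.0347, by edgeR it was 0.00948, and without BMP4 replicate III or VI it was 0.0322 or 0.0375. Rescaled to the same total the change was -0.61 (1.03e-05) and with quantile normalization -0.45 (1.18e-04), whereas without BMP4 replicate II it was -0.0783 (0.484). With BMP5 (1560, 1470 and 1480) and BMP7 (1470, 1560 and 1610) the changes were -0.16 and -0.12, with intervals of -0.36 to 0.05 and -0.32 to 0.09. Quantile normalization gave adjusted p of 0.0425 and 0.042 for these. With BMP3 Cdkn1b was at 1640, 1640 and 1630 (II, III and IV).

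Among the INK4 genes, Cdkn2b rose and Cdkn2c fell with the same 4 BMP ligands. Cdkn2b (ENSMUSG00000073802, chromosome 4), the p15 inhibitor, had 437, 403, 371 and 510 normalized counts in untreated organoids. It had 1750, 1650, 1310 and 1430 with BMP2 and 2050, 1920 and 1650 with BMP4. It had 658, 694 and 971 with BMP5 and 694, 573 and 803 with BMP7. Each of these samples was above every control, and BMP3 samples, at 450, 386 and 413, were within the control range. By limma the log2 change was 1.83 with BMP2 (SE 0.140, adjusted p 7.80e-10), 2.12 with BMP4 (SE 0.151, 1.34e-09), 0.83 with BMP5 (SE 0.151, 4.28e-04) and 0.68 with BMP7 (SE 0.151, 0.00200). Unlike Cdkn1a, its mean was highest with BMP4, at 1873 ± 204 (SD, n = 3) against 1535 ± 201 with BMP2 (SD, n = 4). That difference of -0.29 for BMP2 against BMP4 had an interval of -0.61 to 0.03 and an adjusted p of 0.0974, which was 0.0341 with the same total in every sample. The genes most like Cdkn2b over the 20 samples were 2200002D01Rik (ENSMUSG00000030587, r = 0.985), Prdx5 (ENSMUSG00000024953, r = 0.98) and Fbxw9 (ENSMUSG00000008167, r = 0.979).

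Cdkn2c (ENSMUSG00000028551, chromosome 4), the p18 inhibitor, moved opposite to Cdkn2b. It had 366, 319, 295 and 333 normalized counts in untreated organoids and 10.2, 6.39, 12.9 and 19 with BMP2. With BMP4 it had 62.8, 61.6 and 123, with BMP5 244, 176 and 148, and with BMP7 211, 207 and 147. All samples of these 4 ligands lay under the lowest control, and those with BMP3 (398, 360 and 307) did not. Cdkn2c fell by 4.74 on the log2 scale with BMP2 (limma, SE 0.266, adjusted p 1.36e-11) and by 2.05 with BMP4 (SE 0.287, 4.90e-06). The direct difference of BMP2 against BMP4 was -2.68 (SE 0.287, adjusted p 1.44e-07). With BMP5 and BMP7 it fell by 0.82 and 0.81 (SE 0.287 each, adjusted p 0.0428 and 0.0373). The BMP5 call was lost without untreated replicate II (0.0898), III (0.0723), IV (0.0554) or VI (0.0792) or BMP5 replicate III (0.126) or VI (0.192), with no filter (0.0686) and with a pseudocount of 0.1 (0.0519). The BMP7 call was lost without untreated replicate II (0.0788), III (0.0628) or VI (0.0690) or BMP7 replicate II (0.0584), III (0.0508) or VI (0.163), and with no filter (0.0593).

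Cdkn2a was barely detected in organoids. It had 2.66, 0.83, 0 and 0 normalized counts in untreated organoids, 4.54, 7.67, 1.18 and 0 with BMP2, and 3.56, 1.14 and 0 with BMP4. With BMP5 it had 2.69, 7.41 and 3.65, with BMP7 3.63, 6.38 and 3.85, and with BMP3 2.67, 1.69 and 0.875. These are a few reads per sample, near the 3 reads that a count of 0 allows, so no fold is given. Tested without a filter on low values, its adjusted p by limma was 0.0845 with BMP7, 0.116 with BMP5, 0.22 with BMP2, 0.71 with BMP4 and 1 with BMP3.

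The p53 transcript itself and its targets did not share a direction. Trp53 (ENSMUSG00000059552, chromosome 11) had 2650, 2470, 2400 and 2640 normalized counts in untreated organoids and 807, 674 and 956 with BMP4. It had 2030, 2400, 1680 and 1640 with BMP2, where replicate III equalled the lowest control. With BMP5 (2730, 2340 and 2450), BMP7 (2830, 2280 and 2380) and BMP3 (2660, 2430 and 2470) the groups overlapped the controls. By limma Trp53 fell by 1.66 with BMP4 on the log2 scale (SE 0.129, adjusted p 3.80e-09) and by 0.41 with BMP2 (SE 0.119, 0.00483), where it was -0.87 with the same total and -0.77 with quantile normalization. The direct difference of BMP2 against BMP4 was 1.25 (SE 0.129, adjusted p 8.62e-08), and that of BMP4 against BMP7 was -1.63 (SE 0.138, 1.63e-08). With BMP5 and BMP7 the changes were -0.02 and -0.03, with intervals of -0.29 to 0.25 and -0.30 to 0.24.

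Mdm2 (ENSMUSG00000020184, chromosome 10), the p53 target that encodes its negative regulator, rose with BMP2, BMP4 and BMP7. It had 1090, 891, 947 and 980 normalized counts in untreated organoids and 3140, 3030, 2420 and 2450 with BMP2. With BMP4 it had 1680, 1590 and 1630, with BMP5 1150, 1180 and 1230, and with BMP7 1380, 1130 and 1320. All of these were above the highest control, the closest being BMP7 replicate III at 1130 and BMP5 replicate II at 1150, while BMP3 samples had 981, 844 and 982. The log2 change by limma was 1.49 with BMP2 (SE 0.0963, adjusted p 8.12e-11), 0.74 with BMP4 (SE 0.104, 4.79e-06) and 0.38 with BMP7 (SE 0.104, 0.00837). The BMP7 call was lost without BMP7 replicate II (0.0537). With BMP5 the change was 0.28 (interval 0.07 to 0.50, adjusted p 0.0518), with an adjusted p of 0.0347 with replicate numbers as blocks, 0.0469 by edgeR, 0.0372 by DESeq2, 0.0454 with quantile normalization, 0.046 at a mean of at least 50, 0.0456 with only those 2 groups and 0.0311 without untreated replicate II. Leaving out any other single sample raised it, to 0.164 without BMP5 replicate VI. With the same total the BMP4 rise of Mdm2 was 0.35 (0.00538).

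Both remaining targets fell with BMP2, BMP5 and BMP7. Ccng1 (ENSMUSG00000020326, chromosome 11), which encodes cyclin G1, had 3530, 3760, 4010 and 3820 normalized counts in untreated organoids and 1870, 2350, 2540 and 2160 with BMP2. With BMP5 it had 2950, 2930 and 2660, and with BMP7 2590, 2970 and 2850. These 3 groups lay wholly below the controls, and Ccng1 fell by 0.77 with BMP2 (limma, SE 0.0923, adjusted p 4.15e-07), 0.41 with BMP5 (SE 0.0997, 0.00511) and 0.43 with BMP7 (SE 0.0997, 0.00266) on the log2 scale. The BMP2 change was -1.23 with the same total and -1.20 with quantile normalization. With BMP4, at 3240, 3560 and 3400, the change was -0.15 (interval -0.36 to 0.06, adjusted p 0.190), but it was -0.55 with the same total (4.05e-04), -0.57 with quantile normalization (1.61e-04) and -0.25 by edgeR (0.0420). With BMP3 the values were 3500, 3820 and 4410.

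Bax (ENSMUSG00000003873, chromosome 7), a pore-forming protein of programmed cell death, had 892, 879, 765 and 890 normalized counts in untreated organoids. It had 717, 652, 585 and 578 with BMP2, 727, 683 and 656 with BMP5, and 674, 746 and 672 with BMP7. All were below every control, including untreated replicate IV, which stood lower than the other 3. Bax fell by 0.44 with BMP2 (limma, SE 0.0816, adjusted p 8.41e-05), 0.31 with BMP5 (SE 0.0882, 0.0132) and 0.30 with BMP7 (SE 0.0882, 0.0155) on the log2 scale. The BMP5 call was lost without BMP5 replicate III (0.0506) or VI (0.0689), and the BMP7 call without BMP7 replicate II (0.0640) or VI (0.0663). With BMP4, at 768, 692 and 731, Bax overlapped the controls and fell by 0.23 (SE 0.0882, adjusted p 0.0301). That call was lost without untreated replicate II (0.0703), III (0.0661) or VI (0.0708) or BMP4 replicate III (0.113) or VI (0.0578), with no filter (0.0623) and with only those 2 groups (0.0595). Bax was at -0.63 with BMP4 (1.14e-05) and -0.90 with BMP2 (2.60e-08) when totals were made equal. BMP3 samples had 822, 792 and 797. A protein-coding gene on the same strand, Gm45808, overlaps Bax and makes its count uncertain. Gm45808 had at most 0.182 TPM in samples of the TGFb table and 0 TPM in the fresh and immortalised mesenchymal samples.

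**Figure D2:**
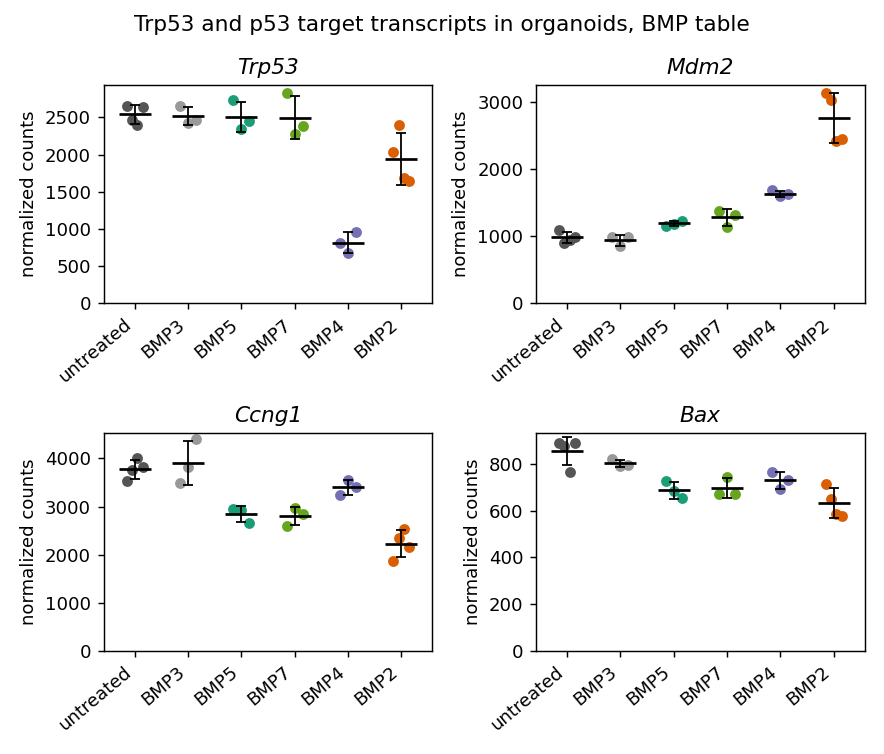
Normalized counts (vertical axes, from 0) of Trp53, Mdm2, Ccng1 and Bax in each organoid sample of the BMP table, by group. Points are samples, horizontal bars the mean and error bars the SD. Trp53 was at 956 or less in every BMP4 sample and at 1640 or more in all other samples, and Mdm2 was at 2420 or more in every BMP2 sample.

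Counted together, all 9 tested members changed with BMP2 (4 higher, 5 lower), where 75.1% of all genes did (36.8% higher, 38.4% lower). With BMP4 7 of 9 changed (4 higher, 3 lower), against 65.1% of all genes (33.7% higher, 31.4% lower). With BMP7 7 of 9 changed (4 higher, 3 lower), against 32.4% (19.2% higher, 13.2% lower). With BMP5 6 of 9 changed (3 higher, 3 lower), against 26.3% (16.5% higher, 9.87% lower). Leaving out a sample lowered the BMP7 count to 3 (replicate II) or 4 (replicate VI) and the BMP5 count to 3 (replicate III) or 2 (replicate VI). With BMP3 limma called 0 of 9, as it did for 0% of all genes, where edgeR called 0 and DESeq2 1. Only 110 genes (0.746%) had an unadjusted p under 0.05 by limma, a smaller share than that threshold passes when nothing differs. The fit may thus be strict for this comparison, and 0 calls do not show that BMP3 had no effect. The 9 log2 changes with BMP3 lay between -0.16 and 0.11, with intervals from -0.66 to 0.71. The members' median log2 change was -0.25 with BMP2, -0.15 with BMP4, -0.03 with BMP7 and -0.02 with BMP5, against -0.03, 0.04, -0.05 and -0.03 for all genes, so rises and falls nearly balanced. The groups of 7 of 9 members did not overlap the controls with each of BMP2, BMP4, BMP5 and BMP7, as was so for 67.6%, 64.8%, 35.7% and 42.4% of all genes, and those of 0 of 9 with BMP3 (2.53%). The shares of members whose groups did not overlap were thus near those of all genes with BMP2 and BMP4, and above them with BMP5 and BMP7. These shares rest on 9 genes that were chosen with earlier results of these data known, and the BMP5 and BMP7 call counts depended on single samples. All 5 comparisons use the same 4 untreated samples.

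The ligands were also compared directly. In the moderated F-test among the 5 BMP ligands 8 of 9 members passed, against 84.1% of all genes. Cdkn1b did not pass (adjusted p 0.305), but it did with the same total in every sample (3.22e-06) and with quantile normalization (3.23e-04). Bax passed at 0.0184, and did not without BMP2 replicate IV (0.05) or VI (0.0502) or BMP3 replicate II (0.0597). BMP2 and BMP4 differed in 6 of 9 members, against 66.8% of all genes. Relative to BMP4, BMP2 gave more Cdkn1c (0.97, limma SE 0.191, adjusted p 1.91e-04), Trp53 and Mdm2 (0.75, SE 0.104, 4.06e-06). It gave less Cdkn2c, Ccng1 (-0.62, SE 0.0997, 2.35e-05) and Bax (-0.21, SE 0.0882, 0.0429). The Bax difference was lost in 8 of 17 alternatives, among them without BMP2 replicate IV (0.110) or VI (0.116) or BMP4 replicate II (0.148) or VI (0.0799).

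BMP2 and BMP7 differed in 7 of 9 members, against 62.8% of all genes. Cdkn1a was higher with BMP2 by 1.99 (SE 0.236, limma adjusted p 8.71e-07), and Cdkn1c, Cdkn2b and Mdm2 were higher by 1.33, 1.16 and 1.11. Cdkn2c, Ccng1 and Trp53 were lower with BMP2 (-3.92, -0.34 and -0.38). With the same total Cdkn2b and Mdm2 differed by 0.77 and 0.72, and Ccng1 and Trp53 by -0.73 and -0.77. The Trp53 difference (adjusted p 0.0164) was lost without BMP2 replicate IV (0.0534) or VI (0.0552), without BMP7 replicate II (0.0983) and with only those 2 groups (0.0550). Cdkn1b (-0.13, interval -0.33 to 0.08) and Bax (-0.14, interval -0.33 to 0.04) did not pass. With the same total Cdkn1b was at -0.52 (7.04e-05) and Bax at -0.53 (7.98e-05), with quantile normalization Cdkn1b was at -0.29 (0.00517), and Bax passed by edgeR (0.0489) and without BMP2 replicate II (0.0453). BMP4 and BMP7 differed in 6 of 9, against 59.8% of all genes, with Cdkn2b higher by 1.45 and Cdkn2c lower (-1.24) under BMP4. The Mdm2 difference of 0.36 (adjusted p 0.00927) was 0.03 with the same total (0.822), and was lost with quantile normalization (0.0684), by edgeR (0.0601) and without BMP7 replicate III (0.0589). The Ccng1 difference of 0.28 (0.0305) was lost without BMP4 replicate III (0.0965) or VI (0.058) or BMP7 replicate II (0.123) or VI (0.0506) and turned to -0.05 with the same total. It was also lost with quantile normalization (0.886), by edgeR (0.203) and with no filter (0.0597). Cdkn1c differed by 0.35 (interval -0.08 to 0.78, adjusted p 0.148), and by the same size with an adjusted p of 0.0307 with replicate numbers as blocks, by 0.63 with quantile normalization (0.00748), by 0.0243 with the same total (0.923) and by 0.14 without BMP4 replicate VI (0.572). Cdkn1b (-0.09, interval -0.31 to 0.13) passed with the same total (-0.42, 0.00102) and with quantile normalization (-0.23, 0.0337), and Bax differed by 0.07 (interval -0.13 to 0.27), or by -0.26 with the same total (0.0309).

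BMP5 and BMP7 were not told apart by any member. Limma called 0 of 9, against 0.0136% of all genes (2 genes, with 347 or 2.35% at an unadjusted p under 0.05, 4 called by edgeR and 23 by DESeq2). The differences of BMP5 against BMP7 lay between -0.33 for Cdkn1a and 0.19 for Cdkn1c. Their 95% intervals reached from -0.86 for Cdkn1a up to 0.64 for Cdkn2c, so these samples do not resolve differences within those bounds.

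Tgfb moved the inhibitors in the same directions within its own table, in TPM (transcripts of a gene, corrected for its length, on a scale with the same total in every sample). Replicates are given in the order I, II and III. Cdkn1a was at 37.5, 40.9 and 51.5 TPM in untreated organoids and at 144, 152 and 170 TPM with Tgfb, a rise of 1.83 on the log2(TPM + 1) scale (limma over 12959 genes, SE 0.132, adjusted p 7.85e-05). Cdkn2b was at 12.9, 13.97 and 17.7 TPM in untreated organoids and at 33.5, 36.3 and 42.7 TPM with Tgfb, a rise of 1.29 (SE 0.141, limma adjusted p 4.44e-04). Neither gene's groups overlapped. Cdkn1c was at 3.66, 2.79 and 2.98 TPM and rose to 10.7, 9.86 and 21.3 TPM (1.78, SE 0.283, limma adjusted p 0.00223). Tgfb replicate III was the highest, and the rise was 1.45 without it. Cdkn2c was at 13.2, 15.0 and 13.8 TPM and fell to 4.32, 3.67 and 4.12 TPM, by 1.57 (SE 0.0893, limma adjusted p 3.14e-05). Cdkn1b was at 38.1, 41.1 and 41.9 TPM and at 33.2, 34.1 and 37.0 TPM with Tgfb. Its fall of 0.21 (SE 0.072, limma adjusted p 0.0460) was lost without untreated replicate II (0.130) or III (0.131), without Tgfb replicate I (0.125) or II (0.118) and with no filter (0.0560). Cdkn2a was at 0.0639, 0 and 0 TPM in untreated organoids and at 0.154, 0 and 0.155 TPM with Tgfb.

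On the p53 side, Trp53 was at 81.8, 85.6 and 84.9 TPM in untreated organoids and at 71.1, 63.2 and 68.9 TPM with Tgfb, a fall of 0.31 (SE 0.0677, limma adjusted p 0.00853). Mdm2 rose from 22.8, 19.8 and 21.9 TPM to 31.8, 30.4 and 34.1 TPM, by 0.56 (SE 0.0794, limma adjusted p 0.00138). Ccng1 fell from 51.5, 60.6 and 55.1 TPM to 37.8, 41.5 and 38.4 TPM, by 0.49 (SE 0.0815, limma adjusted p 0.00260). In each of these the groups were fully apart. Bax was at 79.8, 55.8 and 57.2 TPM in untreated organoids and at 40.8, 127 and 45.2 TPM with Tgfb. Tgfb replicate II stood above every other sample, and the change was -0.04 (interval -1.10 to 1.02, limma adjusted p 0.951). Without that replicate it was -0.55 with an adjusted p of 0.0484. In all, 8 of 9 members changed with Tgfb (4 higher, 4 lower), against 56.7% of all genes (27.4% higher, 29.3% lower), and the groups of 8 of 9 did not overlap, against 64.6%. Crypt stem cell markers summed to 2434 to 2881 TPM in untreated organoids and 138.3 to 143.4 TPM with Tgfb, and their part in these changes was not tested.

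**Figure D3:**
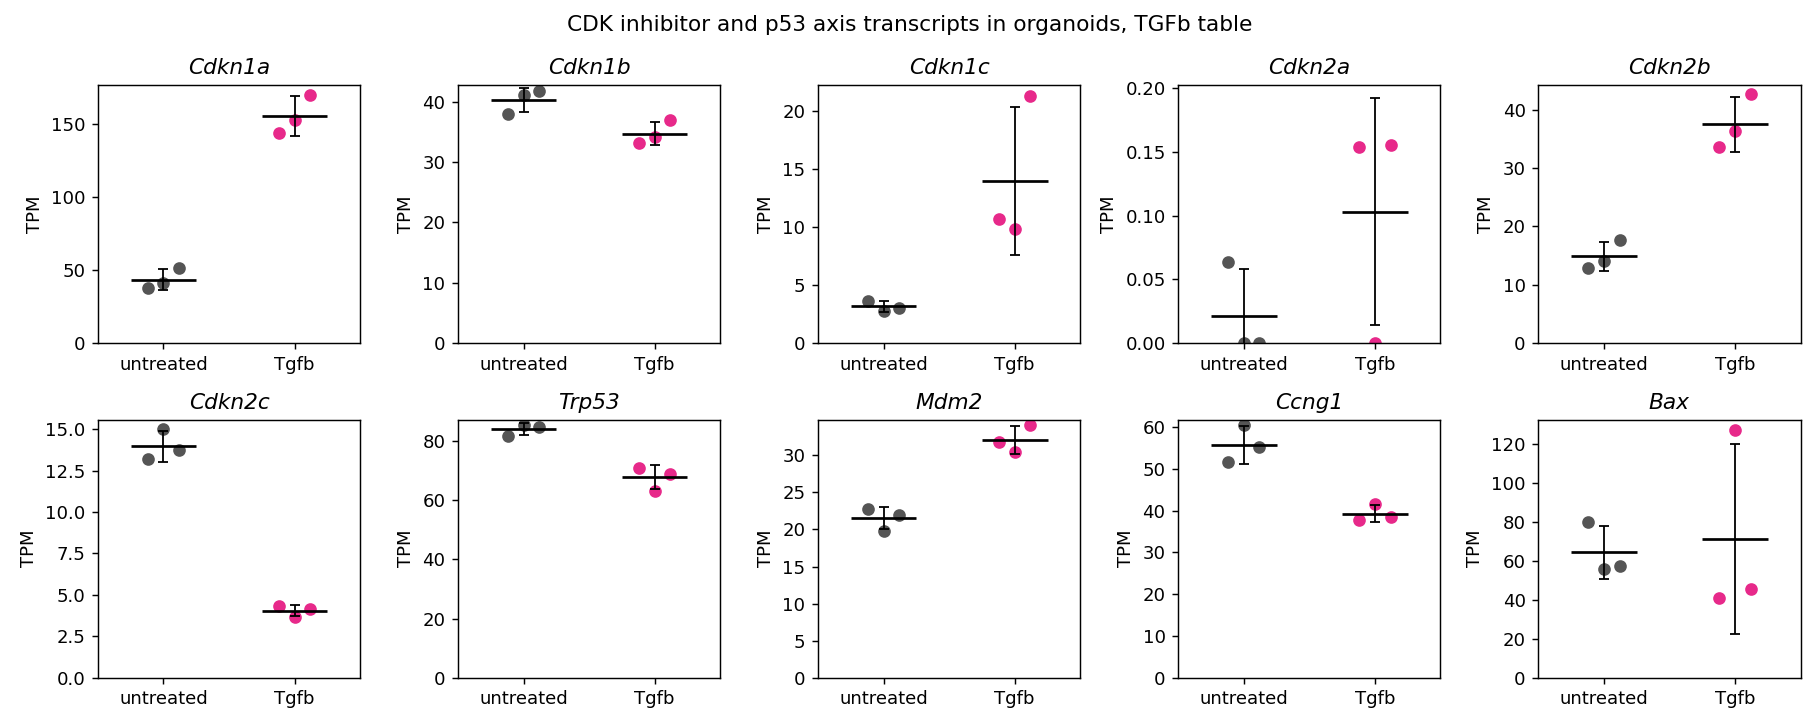
TPM (vertical axes, from 0) of the 10 genes in untreated and Tgfb-treated organoids of the TGFb table, 3 samples each. Points are samples, horizontal bars the mean and error bars the SD. Cdkn1a lay between 37.5 and 51.5 TPM in untreated samples and between 144 and 170 TPM with Tgfb, and a single Tgfb sample carried Bax at 127 TPM.

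Because TPM are corrected for length, levels of different genes can be compared within the TGFb table. In untreated organoids the order of mean TPM was Trp53 (84.1 ± 2.004), Bax (64.3 ± 13.5), Ccng1 (55.8 ± 4.55), Cdkn1a (43.3 ± 7.32), Cdkn1b (40.4 ± 2.004), Mdm2 (21.5 ± 1.5), Cdkn2b (14.9 ± 2.52), Cdkn2c (13.98 ± 0.935), Cdkn1c (3.14 ± 0.457) and Cdkn2a (0.0213 ± 0.0369; SD, n = 3 each). Neighbouring pairs whose values overlapped in this order were Bax with Ccng1, Cdkn1a with Cdkn1b, and Cdkn2b with Cdkn2c. With Tgfb Cdkn1a had the highest mean of the 10, at 155 ± 13.4 TPM (SD, n = 3), and all 3 of its values lay above all values of the other genes.

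**Figure D4:**
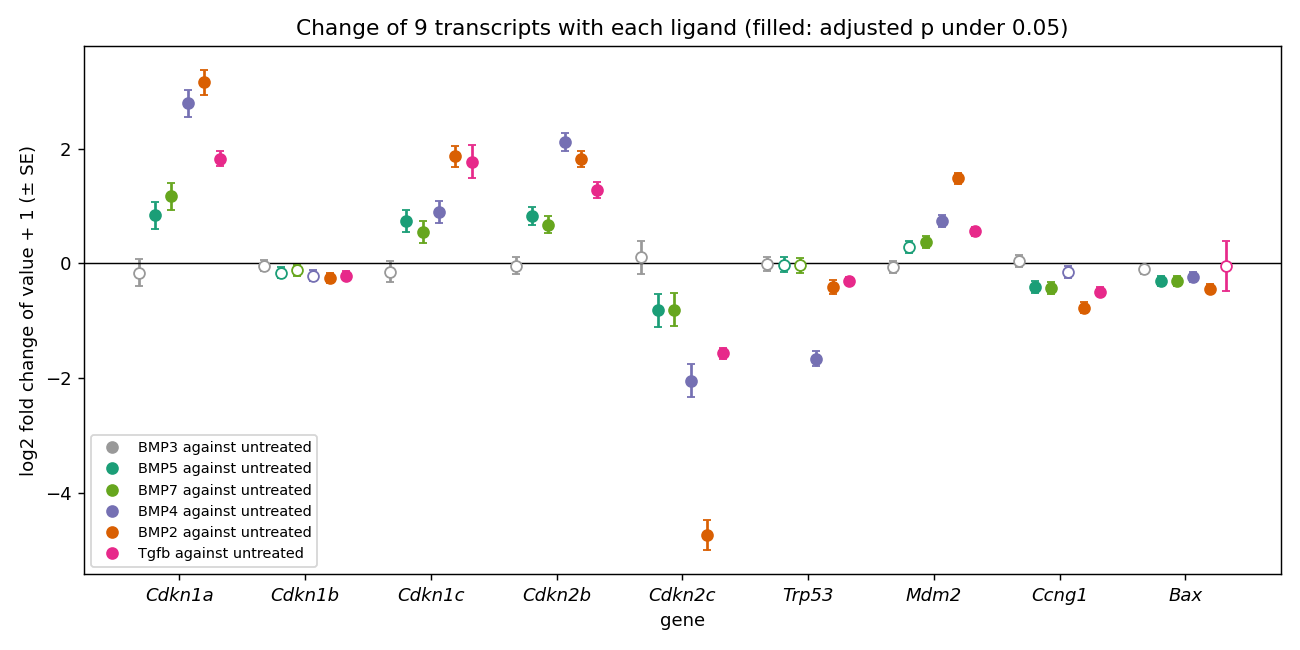
Log2 fold change of value + 1 (vertical axis, ± SE) of the 9 tested genes (horizontal axis) with each ligand against the untreated samples of its own table. Filled points have a limma adjusted p under 0.05. Cdkn1a, Cdkn1c and Cdkn2b were higher and Cdkn2c lower with BMP2, BMP4, BMP5, BMP7 and Tgfb, and all BMP3 points were unfilled. The BMP and TGFb tables were scaled separately.

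Further p53 targets were described from a list of 25 genes chosen from textbook knowledge. With BMP2 13 of 25 rose and 8 fell, where 36.8% of all genes rose and 38.4% fell, and the list's median log2 change was 0.54 against -0.03. With BMP4 9 rose and 10 fell (median -0.04 against 0.04 over all genes), near the 33.7% and 31.4% of all genes. With BMP5 6 rose and 4 fell (median -0.03 against -0.03), where 16.5% and 9.87% of all genes did, and with BMP7 6 rose and 5 fell (0.02 against -0.05), where 19.2% and 13.2% did. With Tgfb 9 of 22 tested rose and 5 fell (0.04 against -0.04), where 27.4% and 29.3% of all genes did. With BMP3 limma called 0 of 25.

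Gadd45a, a stress gene that acts in growth arrest, was at 271.5 ± 65.8 normalized counts in untreated organoids (SD, n = 4) and 3708 ± 475 with BMP2 (SD, n = 4), a log2 rise of 3.79 (SE 0.194, limma adjusted p 4.11e-12). It rose by 1.63 with BMP5 and 1.81 with BMP7. Perp, which encodes a membrane protein of desmosomes, rose by 2.03 under BMP2 and 1.54 under BMP4, and by 0.96 under BMP5 and 1.17 under BMP7. Psrc1, which acts on the mitotic spindle, fell by 3.78 with BMP2, 3.01 with BMP4 and 1.11 with BMP7. Aen, a nuclease of programmed cell death, fell by 1.86 with BMP4 and 0.64 with BMP5. Sesn1 fell by 0.69 with BMP7 and 0.61 with BMP5, the latter lost without BMP5 replicate III (-0.49, adjusted p 0.0522). With Tgfb Plk2 (3.14, SE 0.104, limma adjusted p 5.67e-06) and Pmaip1 (1.81, SE 0.0811, 1.49e-05) rose, and Sesn1 (-1.13) and Psrc1 (-1.43, or -0.87 with a pseudocount of 5) fell.

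Of the listed p53 targets 18 of 25 differed between BMP2 and BMP4, against 66.8% of all genes. Fas and Sesn1 went in opposite directions with these ligands, and the share of genes that did so is not given here. Fas, a death receptor, was at 76.2 ± 13.7 normalized counts in untreated organoids (SD, n = 4), 492.3 ± 69.3 in BMP4 samples (SD, n = 3) and 39.5 ± 8.35 in BMP2 samples (SD, n = 4). It rose by 2.68 with BMP4 (SE 0.190, limma adjusted p 1.32e-09) and fell by 0.94 with BMP2 (SE 0.176, 9.30e-05), and the difference of BMP2 against BMP4 was -3.62 (SE 0.190, 1.20e-11). Sesn1, which acts in the response to oxidative stress, fell by 1.83 with BMP2 (SE 0.140, limma adjusted p 8.35e-10) and rose by 1.22 with BMP4 (SE 0.151, 1.20e-06). Its level was 553 ± 34.9 normalized counts in untreated organoids (SD, n = 4), 156.5 ± 30.6 in BMP2 samples (SD, n = 4) and 1290 ± 144 in BMP4 samples (SD, n = 3). The BMP2 value of Fas and the BMP4 value of Sesn1 were chosen after their values were seen.

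Among the genes on which CDK inhibitors act, most fell with BMP2, BMP4 and Tgfb and few with BMP5 and BMP7. Of 10 cyclins and CDKs, 9 fell with BMP2 (38.4% of all genes), 10 with BMP4 (31.4%), 8 with Tgfb (29.3%), 1 with BMP5 (9.87%) and 2 with BMP7 (13.2%), and 0 rose in any of these. Their medians were -2.84 with BMP2, -1.83 with BMP4, -0.92 with Tgfb, -0.23 under BMP5 and -0.26 under BMP7. Ccnd2, cyclin D2, fell by 3.90 with BMP2, 2.74 with BMP4, 2.56 with Tgfb, 0.93 under BMP7 and 0.82 under BMP5, the last lost without BMP5 replicate VI (-0.57, adjusted p 0.15). Cdk4, a partner of D cyclins, fell by 1.72 with BMP2 and 1.84 with BMP4. Its fall of 0.33 with BMP7 was lost without untreated replicate II (adjusted p 0.103), III (0.0785) or VI (0.0629), without BMP7 replicate III (0.0560) or VI (0.186) and with no filter (0.0715), and was 0.51 with quantile normalization (-0.51). Ccna2, cyclin A2, fell by 1.65 with Tgfb.

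Of 12 proliferation genes all 12 fell under BMP2, BMP4 and Tgfb alike, with medians of -4.39, -1.89 and -1.42, where 38.4%, 31.4% and 29.3% of all genes fell. With BMP5 1 fell (median -0.42), near the 9.87% of all genes. With BMP7 limma called 0 (median -0.38), where it called 32.4% of all genes. Under BMP7 5 of 12 had groups that did not overlap (42.4% of all genes). Top2a and Aurka, which act in mitosis, fell by 5.13 and 4.00 with BMP2. Mcm2 and Mcm3, parts of the replication helicase, fell by 2.81 and 2.77 with BMP4, and the mitotic genes Ccnb1 and Plk1 by 1.56 and 1.52 with Tgfb. The fall of Aurka with BMP5 (-0.67) was lost without untreated replicate III (0.0509) or BMP5 replicate III (0.0515) or VI (0.132).

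Of 10 RB and E2F genes 9 fell with BMP2 (median -1.72), 5 fell and 3 rose with BMP4 (-0.48), 8 fell with Tgfb (-0.64), 3 fell with BMP5 (-0.30) and 2 with BMP7 (-0.30). Of all genes 38.4% fell with BMP2, 31.4% fell and 33.7% rose with BMP4, 29.3% fell with Tgfb, 9.87% with BMP5 and 13.2% with BMP7. E2f7, a repressor of the family, fell by 3.96 with BMP2 and 2.95 with BMP4, and E2f8, its relative, fell by 5.45 with BMP2 and 2.27 with Tgfb. Rb1 rose by 1.59 and E2f4 fell by 0.85 with BMP4, and Rbl1, which encodes the RB relative p107, fell by 1.24 with Tgfb. E2f3 rose by 0.38 with BMP4, but was at -0.0181 with the same total, and lost its call with quantile normalization (0.0542) and without BMP4 replicate VI (0.128). Rbl2, which encodes the RB relative p130, fell by 0.45 with BMP7 and 0.38 with BMP5, the latter lost without untreated replicate IV (0.0503) or BMP5 replicate III (0.0959) or VI (0.0932). E2f2 fell by 1.13 with BMP5 and 0.80 with BMP7. Its BMP7 call was lost without any 1 of the 7 samples compared (adjusted p 0.0592 without untreated replicate IV to 0.136 without BMP7 replicate II) and with no filter (0.0683). Crypt stem cell markers were lower in the same samples, as given above, and their part in these falls was not tested.

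Cdkn2d and Cdkn3, further genes named as CDK inhibitors, fell with BMP2 (-1.77 and -3.30) and Tgfb (-0.83 and -1.16). With a pseudocount of 5 the Tgfb change of Cdkn2d was -0.39. Cdkn3 also fell with BMP4 (-0.77, or -1.16 with the same total), a call lost with quantile normalization (-0.47, 0.0579). Its fall with BMP5 (-0.60) was lost without untreated replicate II (0.0874), III (0.101) or VI (0.0816), without BMP5 replicate II (0.0627), III (0.0605) or VI (0.199) and with no filter (0.0750). Cdkn3 was at -0.47 with BMP7, and Cdkn2d at 0.27 with BMP4, -0.72 with BMP5 and -0.52 with BMP7, none of which passed the limma test (adjusted p 0.0977, 0.427, 0.0717 and 0.174).

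Of 11 BCL2 family genes beside Bax, which set the threshold for cell death, 10 rose and 1 fell with BMP2 (median 1.5), where 36.8% of all genes rose. With BMP5 8 rose (0.57), where 16.5% did, with BMP7 7 rose (0.51), where 19.2% did, and with Tgfb 9 rose and 2 fell (0.91), where 27.4% rose. With BMP4 6 rose and 3 fell (0.69), where 33.7% rose. Bok, a pro-death member, rose by 3.57 under BMP2 and 3.29 under Tgfb, and by 1.95 under BMP5 and 2.10 under BMP7. Bcl2l1, which encodes the protective BCL-xL, rose by 2.01 with BMP2 and 1.26 with BMP7, and Bcl2l11, which encodes the pro-death protein BIM, by 2.49 with Tgfb and 1.80 with BMP5. The pro-death genes Bad and Bak1 rose by 1.48 and 1.14 with BMP4, the latter by 0.74 with the same total, and Bik fell by 2.19 (-1.33 with a pseudocount of 5). Bcl2, a protective member, fell by 2.61 with BMP2, 3.38 with BMP4 and 0.53 with Tgfb (-0.27 with a pseudocount of 5). Bad was lower with Tgfb (-0.34, adjusted p 0.0489), a call lost without untreated replicate I (0.121), II (0.0980) or III (0.105), without Tgfb replicate I (0.0553) and with no filter (0.0917).

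Of 10 regulators of inhibitor levels 4 rose and 3 fell with BMP2, close to the 36.8% and 38.4% of all genes. With BMP4 2 rose and 6 fell (33.7% and 31.4% of all genes), with Tgfb 1 rose and 5 fell (27.4% and 29.3%), with BMP5 2 fell (9.87%) and with BMP7 2 rose and 2 fell (19.2% and 13.2%). Klf4, a factor that binds the Cdkn1a promoter, rose by 2.74 with BMP2, 3.94 with BMP4 and 0.75 with BMP7. Foxo3, a factor that activates Cdkn1b, rose by 1.67 with BMP2 and 0.66 with BMP4, the latter by 0.26 with the same total. Skp2, which targets the p27 protein for breakdown, fell by 4.45 with BMP2, 1.78 with Tgfb (-1.17 with a pseudocount of 5), 0.90 with BMP7 and 0.80 with BMP5, the last lost without BMP5 replicate VI (0.0664). Cks1b, a cofactor of Skp2, fell by 2.09 with BMP2 and 1.85 with BMP4. Cbx7, a Polycomb gene that represses Cdkn2a, fell by 2.32 with BMP4, 0.67 with BMP5 and 0.88 with BMP7, and Ezh2, another Polycomb gene, fell by 0.55 with Tgfb. Foxo1 was higher with BMP7 (0.31, adjusted p 0.0321), a call lost with the same total (0.110), quantile normalization (0.0792) and no filter (0.0611), and without untreated replicate II (0.0970) or VI (0.0587) or BMP7 replicate II (0.0919), III (0.0842) or VI (0.0512). With Tgfb Foxo1 was higher (0.27, adjusted p 0.0215), a call lost without untreated replicate I (0.0542) or II (0.0703) or Tgfb replicate I (0.0604) or III (0.0595) and with no filter (0.0527).

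Of 7 tested p53 regulators and relatives 2 rose and 4 fell with both BMP2 and BMP4 (medians -0.19 and -0.42), 1 fell with BMP5, 1 rose and 1 fell with BMP7, and 1 rose and 2 fell with Tgfb. Of all genes 36.8% rose and 38.4% fell with BMP2, and 33.7% and 31.4% did with BMP4. With BMP5 9.87% of all genes fell, with BMP7 19.2% rose and 13.2% fell, and with Tgfb 27.4% rose and 29.3% fell. Chek2, a kinase of the DNA damage response, fell by 3.22 under BMP2, 1.63 under Tgfb and 1.54 under BMP4, and by 0.68 under BMP7 and 0.60 under BMP5, the last lost without BMP5 replicate VI (0.108). Atm, another damage kinase, fell by 2.43 with BMP2 and 1.5 with BMP4. Its change with Tgfb (-0.55, adjusted p 0.0250) was lost without untreated replicate II (0.0795) or III (0.0761) or Tgfb replicate II (0.0668) or III (0.0637) and with no filter (0.0601), and was -0.36 with a pseudocount of 5. Cop1, which marks p53 for breakdown, rose by 0.57 with BMP2, 0.79 with BMP4, 0.43 with BMP7 and 0.35 with Tgfb. With the same total its BMP2 change was 0.11 (adjusted p 0.127) and its BMP4 change 0.39, and with quantile normalization they were 0.15 (0.0414) and 0.41. Rchy1, another such ligase, rose by 0.36 with BMP2 and 0.54 with BMP4, but with the same total was at -0.10 and 0.14 (adjusted p 0.236 and 0.15), and with quantile normalization the BMP2 change was 0.24.

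In the mesenchymal cells the question was how these genes differ after immortalisation with E6. Each kind of cell had 1 sample, so the difference has no replicate check and no test, and E6, sorting and culture cannot be told apart. Cdkn2a was at 18.3 TPM in the fresh and 331 TPM in the immortalised cells, 17.2-fold higher on the TPM + 1 scale (log2 4.11). Cdkn1b was at 60.1 TPM and 27.4 TPM, a log2 ratio of -1.10. These 2 of 10 members passed a 2-fold difference, which 17% of 13652 genes did (6.26% higher, 10.7% lower), so the share among the members was near that of all genes. Cdkn1a, at 292 TPM and 147 TPM, had a ratio of -0.98, just inside the 2-fold limit, and -1.04 with quantile normalization.

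The other members differed by less than 2-fold. Cdkn2b was at 24.9 TPM in the fresh and 43.2 TPM in the immortalised cells (log2 0.77), and Cdkn1c was at 5.86 TPM and 9.46 TPM (0.61). Cdkn2c was at 17.2 TPM and 11.3 TPM (-0.57). Trp53 was at 65.7 TPM and 91.7 TPM (0.47), Mdm2 at 85.2 TPM and 115 TPM (0.43), Ccng1 at 206 TPM and 222 TPM (0.10) and Bax at 322 TPM and 264 TPM (-0.28). The median over the 10 was 0.26, against -0.02 over all genes. Transcript levels do not show the amount of p53 protein, on which E6 acts.

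Of the 25 further p53 targets 20 differed by less than 2-fold and 5 passed it, where 17% of all genes passed it. That share was thus near the share of all genes. The list's median log2 ratio was -0.04 against -0.02 over all genes. Fas and Plk2 were higher in the immortalised cells (1.45 and 1.22). Perp, Gadd45a and Trp53inp1 were lower (-2.85, -1.75 and -1.20), the last named after its value was seen. Among cyclins and CDKs Ccne2 and Ccnd1 were higher (1.55 and 1.47) and none of the 10 was lower past 2-fold, with a median of 0.57. Of all genes 6.26% were higher and 10.7% lower past 2-fold. None of the 12 proliferation genes passed 2-fold in either direction, where 17% of all genes did, and their median was 0.56. Mdm4, a partner of MDM2, was lower (-1.15), E2f7 was higher (1.22), and of the BCL2 family Bid and Bok were higher (1.32 and 1.02) and Bmf and Bcl2l11 lower (-1.51 and -1.25). Klf4 and Myc were higher (1.36 and 1.29). With a pseudocount of 5, E2f7 (0.74), Bok (0.85), Bmf (-0.75) and Bcl2l11 (-0.76) were within 2-fold, and Perp was at -1.20 (-5.39 with a pseudocount of 0.1). The 6 epithelial markers summed to 28.4 TPM in the fresh and 0.0868 TPM in the immortalised cells, the 4 endothelial ones to 16.3 TPM and 1.28 TPM, the 4 of smooth muscle and interstitial cells to 522 TPM and 179 TPM, and the 6 mesenchymal ones to 12370 TPM and 3302 TPM. Cdh1, Vil1 and Cdx2 of the epithelial markers were at 0 in both samples. The part of these marker differences in the ratios was not tested.

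**Figure D5:**
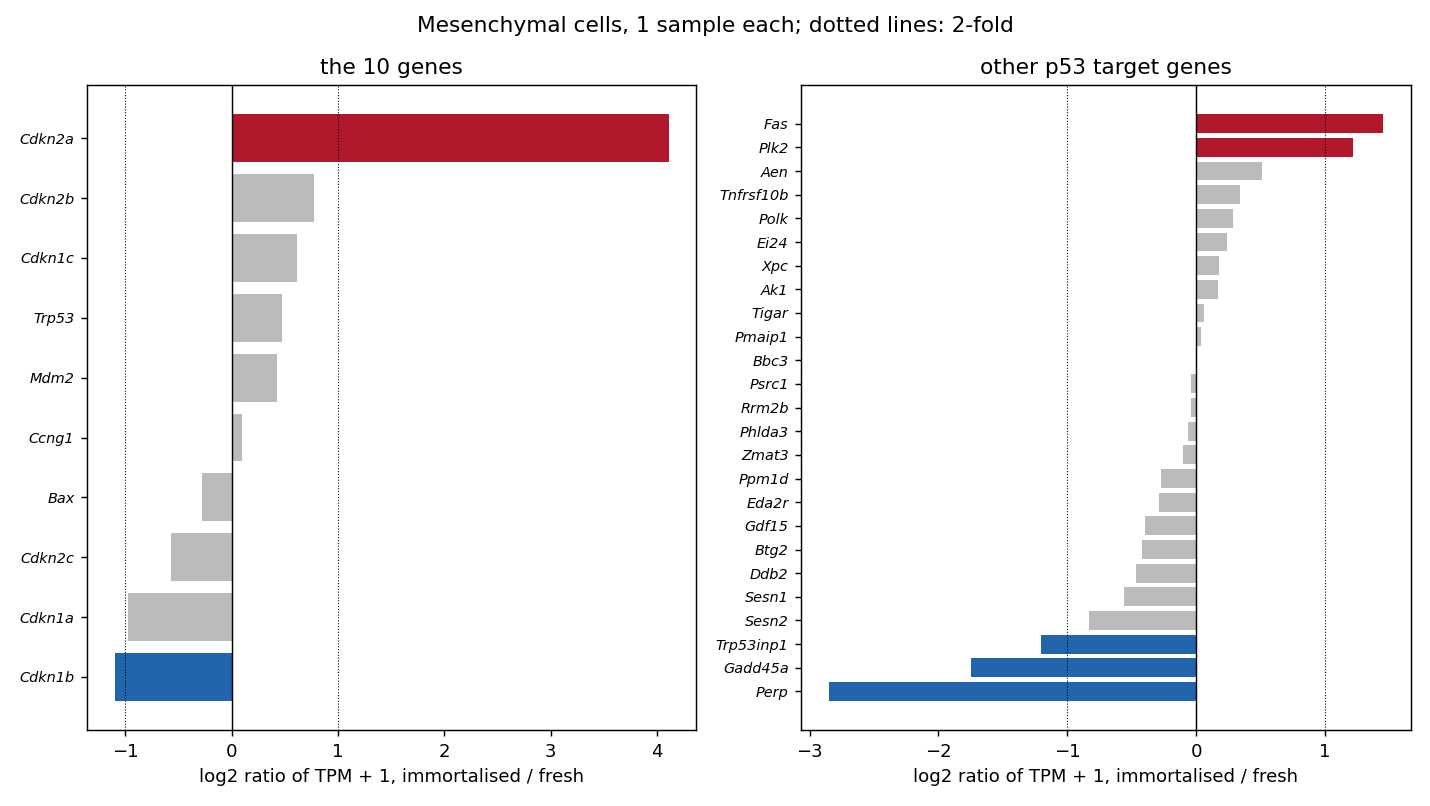
Log2 ratio of TPM + 1 (horizontal axes) of immortalised to fresh mesenchymal cells, 1 sample each, for the 10 genes and for 25 other p53 targets. Bars beyond the dotted 2-fold lines are coloured. Cdkn2a stood alone among the 10 at 4.11. Of the 25 other targets 20 lay within 2-fold and 5 passed it, near the 17% of all genes that passed it.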

How the data were processed

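Organoids and mesenchymal cells were profiled by mRNA sequencing in 28 samples, grouped by title and treatment labels (0 value columns were left unmapped). Per the submitters' processing notes, the authors used Trim Galore, Salmon, DESeq2 and the GRCm39 build. No role or version is given there. The deposited BMP values are a signal, that is read counts per gene over a size factor for the sample, written to 3 significant digits, as read from the values. Of 180721 values of at most 20 reads, 100% were whole reads within 0.15 reads. The deposited TGFb and mesenchymal values are TPM, since each column sums to 1000000. TPM keep no depth.

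In R 4.3.3, log2(value + 1) was tested by limma 3.58.1, with an intensity trend, on genes with a mean of at least 10 normalized counts (BMP table, 14746 genes, all 6 groups in 1 fit) or 1 TPM (TGFb table, 12959 genes). They were two-sided, with Benjamini-Hochberg adjustment over all genes tested and a threshold of 0.05. Intervals are 95% intervals of the fit, and counting floors (3 reads) cover counting error only. A fold change on this scale understates that of low genes. The mesenchymal table had no test, and genes past 2-fold are named. Count tests on the recovered reads used edgeR 4.0.16 and DESeq2 1.42.0. Other alternatives were pseudocounts of 0.1 and 5, the same total, quantile normalization, replicate blocks, no filter or means of at least 50 or 10 TPM, only the groups compared, and leaving out each sample. The limma, edgeR and DESeq2 fits of BMP2 against untreated were tested on simulated data, as were the limma fits of BMP3 and Tgfb against untreated. Other steps were not tested in that way.

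The members and lists were chosen with earlier results of these data known. Results of some lists of cell type markers are not reported here. The text names all members, and from each list up to 2 genes that rose and 2 that fell per comparison, by smallest p (by largest ratio in mesenchymal cells). Replicate numbers paired BMP3, BMP4, BMP5 and BMP7 samples with untreated ones, and BMP4 and BMP5 with BMP7, since samples of the same number deviated together (correlations over 0.1 in each pair, 0.15 to 0.57). Sequences are from RefSeq windows of GRCm38.p6, and overlaps of genes from GENCODE on GRCm38.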

Additional observations from a re-analysis of the deposited data

Results flagged for a closer look

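Bax in untreated organoids stood out by a single sample: replicate IV was at 765 normalized counts while replicates II, III and VI were at 892, 879 and 890. The gap to the nearest sample was 0.898 of the whole range of the group (0.8976). Of 20 groups of 4 samples examined, this was the only one, and chance alone marks about 1 in 20.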

How the results depend on the processing

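The next counts leave out BMP3 against untreated and BMP5 against BMP7, where 0 of 9 members were called as reported and 0 in all alternatives. Of the 81 other tested results on the members, the F-test included, 64 were called. In all alternatives 48 of these stayed called, in the same direction where the test has one. The other 16 lost the call in at least 1 alternative, and 1 of them (Ccng1, BMP4 against BMP7) turned to -0.0501 with the same total. Of the 17 not called, 13 passed in the same direction in at least 1 alternative. Bax in BMP4 against BMP7 is not among those 13, and passed only in the opposite direction, with the same total.

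With the same total in every sample Bax in BMP4 against BMP7 was -0.26 (adjusted p 0.0309), Rchy1 with BMP2 -0.10 and E2f3 with BMP4 -0.0181, opposite in sign to the reported values. By edgeR Cdkn1b in BMP2 against BMP4 was 0.0059 and Bax in BMP4 against BMP7 -0.0424. Leaving out single samples gave ranges across 0 for results that were not called. Cdkn1b ranged from -0.17 to 0.0315 for BMP2 against BMP4 and from -0.16 to 0.0408 for BMP4 against BMP7, Trp53 from -0.0838 to 0.0273 with BMP5 and from -0.12 to 0.0324 with BMP7, and Bax from -0.55 to 0.26 with Tgfb. The count of members called ranged over the fits without a sample from 2 to 6 with BMP5 and from 3 to 6 with BMP7. The causes were not tested.

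The share of higher calls among all genes was 48.9% with BMP2 as deposited and 31.5% with the same total, and 51.7% and 30.9% with BMP4. It was 62.5% with BMP5 and 49.8% with quantile normalization, and 59.4% and 48.0% with BMP7. The number of genes called was 3884 with BMP5 (2517 to 5738 in alternatives), 0 with BMP3 (0 to 6) and 2 for BMP5 against BMP7 (0 to 23).

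With replicate numbers as blocks 8 members were called with BMP4 and 7 with BMP5, through Cdkn1b (adjusted p 0.0347) and Mdm2 (0.0347), and Cdkn1c passed for BMP4 against BMP7 (0.0307). Where the numbers paired the samples only in part, Cdkn1a passed for BMP2 against BMP4 (0.41, adjusted p 0.0141). Where they did not pair them, Atm (0.0672) and Bad (0.0719) lost their calls with Tgfb. The block changed no other call on a gene named here, and gave 6 genes for BMP5 against BMP7. Numbers paired BMP2 samples in part. Against untreated samples the correlation was 0.02 for replicate III and 0.2 to 0.42 for the others. Against BMP4 samples it was 0.02 for replicate III and 0.24 and 0.31 for II and VI, and against BMP7 samples -0.05, 0.13 and 0.23. Numbers did not pair Tgfb with untreated samples (0.01, 0 and 0.07), so the block there shares only a number. Precision is limited by 3 or 4 samples per group, and by a few reads for Cdkn2a.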
